A study of Mus musculus with 4 samples.

Results

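The genes described here belong to the MHC class I antigen presentation pathway: the class I heavy chains *H2-K1* and *H2-D1*, their light chain *B2m*, the peptide transporter and loading genes *Tap1*, *Tap2* and *Tapbp*, the immunoproteasome subunits *Psmb8*, *Psmb9* and *Psmb10*, and the transcriptional activator *Nlrc5*. They were chosen by name, and all 10 were found among the 27998 genes counted in each library. Their levels were followed across leukocyte types, genotypes and days after muscle injury.

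CD45+ leukocytes were enriched with magnetic beads from collagenase-digested tibialis anterior muscle of male mice aged 8 to 12 weeks after cardiotoxin injury, and single-cell 3′ libraries were made at dpi2 and dpi4 (days post injury). The control mice were *Bach1* fl/fl littermates and the KO mice were *Bach1* fl/fl Lyz2-Cre, so the floxed *Bach1* allele was shared by all groups and Cre was driven by the *Lyz2* promoter, which acts in monocytes, macrophages and neutrophils rather than in lymphocytes. There was 1 library for each genotype and day, with 6602 barcodes in the control library and 4177 in the KO library at dpi2, and 5207 and 4514 at dpi4. With 1 library a group, no difference between groups had a replicate check and no test was made: ratios are given with 95% intervals that cover counting error only, not differences between animals or dissections.

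After filtering, 5721 control and 3684 KO cells remained at dpi2, and 4173 and 3433 at dpi4, with a median of 10706 to 15154 UMIs (unique molecular identifiers, counted molecules) per cell. Cells were clustered with the class I genes left out, and each cluster was named from its markers, so that macrophage below means macrophage-like, and likewise for the other types. At dpi2 macrophages were 1863 control and 1047 KO cells, monocytes 2614 and 983, neutrophils 631 and 824, and type 2 dendritic cells 247 and 188. At dpi4 macrophages were 2965 and 2588, whereas monocytes were 46 and 72 cells and neutrophils 127 and 35. The smaller types held 7 to 80 cells per library. *Lyz2*, into which Cre is inserted in the Lyz2-Cre line, was at 9388 and 15845 CPM (UMIs of a gene per 1e6 UMIs of the cells summed) in the control libraries and at 17.5 and 21.6 CPM in the KO libraries. KO to control ratios therefore compare cells that differ in *Lyz2* as well as in *Bach1* genotype, and these cannot be told apart. *Bach1* was at 187 to 217 CPM in all 4 libraries, but 3′ counts do not resolve the floxed exon, so this level does not check the genotype. *Hmox1*, a heme oxygenase gene that BACH1 represses, was higher in KO macrophages by 3.96 on the log2 scale at dpi2 and by 3.92 at dpi4. Any pair of libraries shared 2 to 14 barcodes.

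MHC class I molecules show peptides from inside the cell to CD8 T cells and are inspected by NK cells. Proteasomes cut the peptides, the TAP transporter moves them into the endoplasmic reticulum, and tapasin helps to load them onto a heavy chain paired with β2-microglobulin. Interferons raise the expression of many of these genes through STAT and IRF factors and through NLRC5, and the immunoproteasome subunits then replace the constitutive catalytic subunits of the proteasome.

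In the mm10 build, 7 of the 10 genes lay on chromosome 17. *Psmb9*, *Tap1*, *Psmb8* and *Tap2* followed each other between 34181987 and 34216321, with *Tapbp* and *H2-K1* before them and *H2-D1* from 35262730 to 35267499. *B2m* was on chromosome 2 and *Nlrc5* and *Psmb10* were on chromosome 8. The 250 bases before the RefSeq transcription start (GRCm38.p6) are shown for the heavy chains and the light chain, which form the class I molecule, and for *Tap1*, which had the lowest KO to control ratio in macrophages at dpi2. Capitals mark matches on either strand to 4 short motifs: AANNGAAA (the core bound by IRF factors), TTCNNNGAA (the GAS site), TGACG (the CRE-type box) and ATTGG (the inverted CCAAT box, bound by NF-Y). They also mark TGACNNNGC, the core of the antioxidant response element to which BACH1 binds, and where matches overlap they run together. The motifs were chosen with these sequences in view.
B2m, chr2:122147437-122147686, plus strand: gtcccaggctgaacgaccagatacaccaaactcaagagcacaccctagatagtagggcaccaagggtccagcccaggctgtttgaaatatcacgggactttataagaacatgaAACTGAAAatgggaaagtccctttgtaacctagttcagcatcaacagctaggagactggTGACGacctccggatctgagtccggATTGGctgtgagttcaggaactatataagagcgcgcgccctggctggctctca
H2-D1, chr17:35262844-35263093, plus strand: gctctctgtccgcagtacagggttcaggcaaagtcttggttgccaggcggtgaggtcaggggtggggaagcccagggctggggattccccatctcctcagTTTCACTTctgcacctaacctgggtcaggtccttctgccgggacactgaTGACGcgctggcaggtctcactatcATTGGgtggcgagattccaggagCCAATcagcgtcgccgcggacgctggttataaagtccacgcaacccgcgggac
H2-K1, chr17:34000348-34000597, minus strand: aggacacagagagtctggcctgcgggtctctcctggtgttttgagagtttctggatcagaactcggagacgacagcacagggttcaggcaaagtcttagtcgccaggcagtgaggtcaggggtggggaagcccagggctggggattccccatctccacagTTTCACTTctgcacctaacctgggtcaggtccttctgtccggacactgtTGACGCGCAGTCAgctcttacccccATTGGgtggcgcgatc
Tap1, chr17:34187306-34187555, plus strand: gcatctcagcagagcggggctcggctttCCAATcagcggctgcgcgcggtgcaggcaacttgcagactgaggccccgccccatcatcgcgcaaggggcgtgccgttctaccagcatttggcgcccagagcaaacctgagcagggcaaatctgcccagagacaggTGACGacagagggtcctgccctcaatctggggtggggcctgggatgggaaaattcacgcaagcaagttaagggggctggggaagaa

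The windows of *B2m*, *H2-D1* and *H2-K1* each held an IRF core, a CRE-type box and an inverted CCAAT box, a combination found in 1.13% of the windows of 27025 genes. In all 3, ATTGG began 25 bases after TGACG, a spacing found in 13 of those windows, these 3 included. *H2-M3*, another class I gene, was also among the 13, as were genes of other kinds such as *Per1* and *Ubn1*. In *H2-D1* and *H2-K1* the IRF core lay 49 bases before TGACG, and the longest run of bases they shared was 47. The *Tap1* window held a CRE-type box and a CCAAT box but no match to the IRF core, and it overlapped that of *Psmb9*, which is read in the opposite direction from a start 226 bases away. *Psmb8* had a single match, to the GAS site, 97 bases before its start, and *Psmb10* had none. Singly, the IRF core was in 21.7% of all windows, the GAS site in 7.11%, TGACG in 17.6%, ATTGG in 34.2% and the antioxidant core in 10.1%. Among the members the antioxidant core was matched in *H2-K1*, where it overlapped TGACG. Windows were at hand for 8 of the 10 members, all but *Tap2* and *Nlrc5*, and the RefSeq starts of *H2-D1*, *Psmb8*, *Psmb9* and *Tapbp* lay 364, 474, 434 and 3579 bases inside the GENCODE gene. A match of this kind describes letters in a window and not a bound site.

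*H2-K1*, *H2-D1* and *B2m* were counted in every leukocyte class of all 4 libraries, and the order of the classes differed by gene. No class lacks these genes, so none gave a background level. Mature dendritic cells, the *Ccr7* and *Fscn1* type that migrates to lymph nodes, had the highest *B2m* in each library, from 3461 to 4863 CPM, and type 1 dendritic cells had the lowest, from 959 to 1572 CPM. In the control library at dpi4 the order of *B2m* was mature dendritic cells at 4755 CPM, monocytes at 3111, macrophages at 3075, NK cells at 2826, T cells at 2642, plasmacytoid dendritic cells at 2590, B cells at 2370, type 2 dendritic cells at 2345, neutrophils at 1560 and type 1 dendritic cells at 1312. Monocytes and macrophages did not differ beyond their intervals, nor did neighbours from NK cells down to type 2 dendritic cells. *H2-K1* in the same library was again highest in mature dendritic cells, at 3380 CPM, followed by NK cells at 2675, T cells at 2482 and plasmacytoid dendritic cells at 2182, and it was lowest in neutrophils at 746 and type 1 dendritic cells at 849, whose intervals overlapped. Macrophages, at 1300 CPM, and monocytes, at 1318, stood between these groups. *H2-D1* shared the ends of this order, with 2880 CPM in mature dendritic cells and 809 CPM in neutrophils, but B cells, T cells, macrophages, plasmacytoid and type 2 dendritic cells, NK cells and monocytes lay close together from 1667 to 1996 CPM, with neighbours whose intervals overlapped. *H2-K1* and *H2-D1* are close copies of each other and of other class I genes, so the split of reads between them is uncertain.

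The immunoproteasome subunits were ordered otherwise. Type 1 dendritic cells, which specialise in presenting captured antigen on class I, had the highest *Psmb9* in each library, from 499 to 583 CPM, while macrophages had 52.4 to 95.3 CPM. For *Psmb8* the highest classes were type 1 dendritic cells, from 850 to 1343 CPM, and mature dendritic cells, from 1089 to 1280 CPM. Macrophages had 156 to 220 CPM of *Psmb8*. *Nlrc5* was the least counted member, at 12.5 to 15.6 CPM in macrophages, 19.1 to 42.6 in monocytes and 64.3 to 109 in mature dendritic cells, and in B cells of the KO libraries, with 12 and 17 cells, no UMI was counted.

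**Figure D1:**
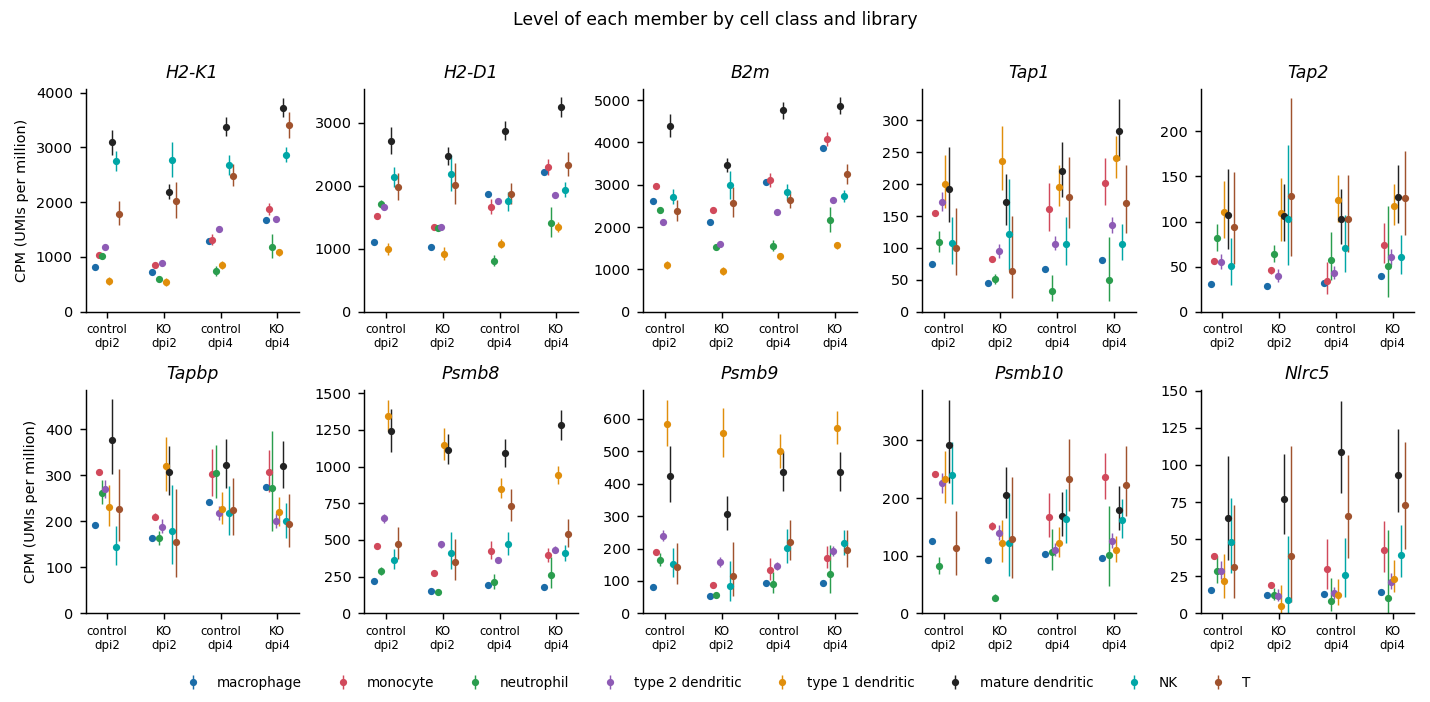
Level of each of the 10 members (CPM, linear axis from 0, a separate scale for each gene) in the 4 libraries, with colours for the leukocyte types and bars for the exact Poisson 95% interval. Mature dendritic cells sit highest for *B2m* and type 1 dendritic cells for *Psmb9*, and in macrophages, monocytes and neutrophils the KO point lies below the control point at dpi2 for each gene.

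At dpi2 every member was lower in the KO than in the control library in macrophages, monocytes, neutrophils and type 2 dendritic cells. In each of these classes *Tap1* and *Psmb9* differed more than *H2-K1*, *H2-D1* and *B2m* did. A member was counted as higher or lower when it differed by at least 1.5-fold with an interval that left out 1 and at least 50 UMIs in the pair of libraries. By this rule 2 of 10 members were lower in macrophages, 5 in monocytes, 8 in neutrophils and 4 in type 2 dendritic cells, and none was higher. Of all genes counted as deeply, 5.94% were lower in KO macrophages and 5.41% higher, 6.62% were lower in monocytes, 21.3% in neutrophils and 5.12% in type 2 dendritic cells.

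Among the class I chains, *H2-K1* in macrophages at dpi2 was at 818 CPM in the control and 719 CPM in the KO library, and at dpi4 it was at 1300 and 1676 CPM. *H2-D1* was at 1100 and 1023 CPM at dpi2 and at 1864 and 2218 CPM at dpi4. *B2m*, the light chain without which class I molecules do not reach the surface, was at 2612 and 2114 CPM at dpi2 and at 3075 and 3877 CPM at dpi4. For all 3 chains the KO library was the lower at dpi2 and the higher at dpi4, and both dpi4 libraries lay above both dpi2 libraries. The share of barcodes with at least 10% mitochondrial UMIs, which were left out, had the same order, with 8.10% in the control and 6.61% in the KO library at dpi2 and 15.4% and 19.9% at dpi4. With a limit of 5% the log2 ratio of KO over control for *H2-K1* was -0.22 and then 0.43 on these days, and that for *B2m* -0.32 and then 0.37. The KO to control ratios at dpi2 were -0.19 (-0.21 to -0.16) for *H2-K1*, -0.11 (-0.13 to -0.08) for *H2-D1* and -0.30 (-0.32 to -0.29) for *B2m* on the log2 scale, none of which reached 1.5-fold. In neutrophils at dpi2 the differences were wider: *H2-K1* was at 1018 CPM in the control and 603 CPM in the KO library, a log2 ratio of -0.76 (-0.85 to -0.66), and *B2m* was at 2398 and 1540 CPM, a log2 ratio of -0.64 (-0.70 to -0.58). *H2-D1* in neutrophils, at 1708 and 1327 CPM, did not reach the fold required.

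The subunits of the peptide transporter differed from each other. *Tap1*, one subunit of the TAP transporter, was at 75.1 CPM in control and 44.5 CPM in KO macrophages at dpi2, and at 66.7 and 80.6 CPM at dpi4, so that the KO libraries held both the lowest and the highest value. Its log2 ratio at dpi2 was -0.76 (-0.85 to -0.66) in macrophages, -0.91 (-1.001 to -0.811) in monocytes, -1.09 (-1.42 to -0.77) in neutrophils and -0.86 (-1.07 to -0.65) in type 2 dendritic cells. *Tap1* and *Psmb9* were the members that were lower by the rule of size in all 4 of these classes. In macrophages with cells thinned to 2000 UMIs, which also weights each cell equally, their log2 ratios were -0.58 and -0.54, just short of 1.5-fold, and *Psmb9* fell short in type 2 dendritic cells too. *Tap2*, the other subunit, was at 30.4 and 29.0 CPM in macrophages at dpi2, where the interval of its log2 ratio included 0 (-0.20 to 0.06), and it fell short of 1.5-fold in the other 3 classes too. *Tapbp*, which encodes tapasin, was at 193 and 163 CPM in macrophages and at 307 and 209 CPM in monocytes, and it passed the rule in neutrophils, where 262 CPM in the control stood against 163 CPM in the KO library, but not in thinned cells, with a mean of 0.5 and 0.334 UMIs per cell.

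All 3 immunoproteasome subunits were lower in the KO library at dpi2. In macrophages *Psmb9* was at 81.3 and 52.4 CPM, a log2 ratio of -0.63 (-0.72 to -0.55), while *Psmb8*, at 220 and 156 CPM, and *Psmb10*, at 126 and 92.3 CPM, differed by less than 1.5-fold. In monocytes each of them passed, with *Psmb8* at 456 CPM for control and 275 CPM for KO cells, *Psmb9* at 189 and 86.3 CPM, and *Psmb10* at 242 and 151 CPM. The widest differences were in neutrophils, where *Psmb9* was at 166 and 56.0 CPM, a log2 ratio of -1.57 (-1.86 to -1.28), and *Psmb10* at 82.7 and 27.3 CPM, a log2 ratio of -1.60 (-2.02 to -1.18). In type 2 dendritic cells *Psmb9* and *Psmb10* passed the rule, with log2 ratios of -0.60 and -0.69. Neither passed with cells thinned to 2000 UMIs, where the mean per cell was 0.537 UMIs in the control and 0.406 in the KO library for *Psmb9*, and 0.373 and 0.316 for *Psmb10*.

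*Nlrc5*, the activator of class I gene transcription, was at 38.6 CPM in control and 19.1 CPM in KO monocytes at dpi2, at 28.7 and 12.5 CPM in neutrophils and at 28.8 and 11.9 CPM in type 2 dendritic cells. It passed the rule in these 3 classes, with log2 ratios of -1.02 (-1.22 to -0.82), -1.20 (-1.87 to -0.54) and -1.27 (-1.86 to -0.70). In macrophages, at 15.6 and 12.5 CPM, it did not.

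The median log2 ratio of the 10 members at dpi2 was -0.31 in macrophages (medians of the members' lower and upper limits, -0.41 and -0.24), -0.61 in monocytes (-0.68 and -0.55), -0.87 in neutrophils (-1.02 and -0.62) and -0.49 in type 2 dendritic cells (-0.72 and -0.36). The medians over all genes were -0.02, -0.02, -0.30 and -0.00, so neutrophils were the class in which genes in general were lower, and scaled by the median gene the members' median was -0.56 in neutrophils and -0.60 in monocytes. On that scale *H2-K1*, *B2m* and *Tapbp* in neutrophils were at -0.45, -0.34 and -0.38, short of 1.5-fold, while the other 5 members that had passed stayed beyond it. At a 2-fold limit 0, 2, 4 and 1 members were lower in these classes, beside 2.16%, 2.77%, 6.92% and 1.85% of all genes. In the smaller classes 1 of 7 scored members was lower in NK cells (*Psmb10*, beside 7.30% of genes), 1 of 9 in type 1 dendritic cells (*Psmb10* again, beside 5.79%) and 0 of 9 in mature dendritic cells, where 8.58% of genes were and where all 9 unthinned ratios were below 1. In thinned mature dendritic cells *Psmb8* and *Tap2* were instead higher in the KO library. Their means were 2.52 and 0.087 UMIs in the control and 3.33 and 0.292 in the KO library. In B cells, with 17 control and 12 KO cells, *H2-K1* and *Psmb8* were lower among 4 scored members, beside 13.1% of genes, but in thinned cells *Psmb8* fell short of 1.5-fold, with means of 0.933 and 0.7 UMIs. At dpi4 *H2-K1* was higher and *H2-D1* lower in KO B cells, of 3 scored members, beside 20.4% and 18.7% of genes. This rests on 17 KO cells and on 7 control cells with 55 *H2-K1* and 112 *H2-D1* UMIs. The median log2 ratio at dpi2 was 0.03 in NK cells, 0.07 over the 4 members scored in T cells and -0.07 in type 1 dendritic cells.

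**Figure D2:**
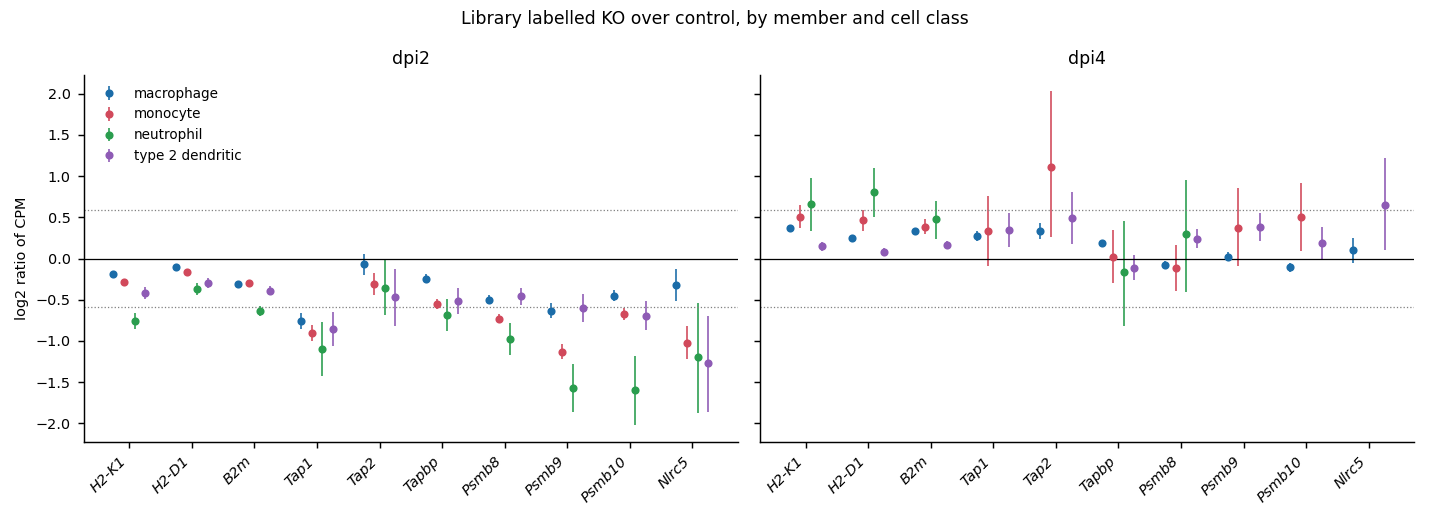
Log2 ratio of KO over control for each member at dpi2 and dpi4 in macrophages, monocytes, neutrophils and type 2 dendritic cells, with exact 95% intervals for counting error and a line at 0. At dpi2 all points lie below 0, from -0.07 for *Tap2* in macrophages to -1.60 for *Psmb10* in neutrophils, and at dpi4 most lie above it.

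Cells of the KO library were deeper at dpi2, with a median of 26972 UMIs in macrophages against 18856 in the control and 3421 against 2308 in neutrophils. With every cell thinned to 2000 UMIs, the summed count of the 10 members in a macrophage had a median of 11 (quartiles 7 and 15) in the control and 9 (6 and 12) in the KO library at dpi2, and of 14 (10 and 19) and 18 (13 and 24) at dpi4. In neutrophils the medians at dpi2 were 11 and 7, in monocytes 13 and 11, and the cells of the libraries overlapped widely in every class. The thinned counts thus kept the order of the CPM values, lower in KO cells at dpi2 and higher in KO macrophages at dpi4. Cells with under 2000 UMIs were left out of this count, which kept 1837 of 1863 control macrophages and 1037 of 1047 KO macrophages at dpi2, but 464 of 631 control and 770 of 824 KO neutrophils.

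Markers of other cells differed between the libraries as well. The 8 neutrophil markers summed to 318 CPM in KO and 110 CPM in control macrophages at dpi2, to 435 and 210 CPM in monocytes and to 211 and 47.4 CPM in type 2 dendritic cells, against 73888 and 52603 CPM in neutrophils themselves. *Ly6g* was at 0 in KO macrophages and in type 2 dendritic cells of both libraries. Monocyte markers summed to 1469 CPM in KO and 2363 CPM in control neutrophils at dpi2, with all 8 detected in both. Eosinophil markers in these neutrophils summed to 76.9 CPM in the KO and 168 CPM in the control library, with *Epx* and *Prg2* at 0 in both. At dpi4 macrophage markers in type 2 dendritic cells summed to 3321 CPM in KO and 6249 CPM in control cells. Neutrophil markers there summed to 18.1 and 134 CPM. The part of these markers in the class I differences was not tested. A shallow cluster of 588 cells nearest to neutrophils and another of 167 cells were left unnamed, and at dpi2 they held 528 KO and 159 control cells.

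At dpi4 the direction differed. In macrophages no member passed the rule, beside 3.20% of all genes higher and 3.97% lower, but 8 of 10 ratios were above 1, with a median of 0.22 on the log2 scale (0.18 and 0.26) where the median over all genes was 0.01. *H2-K1* stood at 0.37 (0.35 to 0.38), *Tap2* at 0.34 (0.24 to 0.43), *B2m* at 0.33 (0.32 to 0.34), *Tap1* at 0.27 (0.21 to 0.34) and *H2-D1* at 0.25 (0.24 to 0.26). The members that had differed most at dpi2 apart from *Tap1* were near 0 at dpi4: *Psmb9* at 0.02 (-0.04 to 0.08), *Psmb8* at -0.08 (-0.12 to -0.04) and *Psmb10* at -0.11 (-0.16 to -0.05). With cells thinned to 2000 UMIs each of these 3 changed sign, to -0.0082, 0.054 and 0.00075, so their directions and the tally of 8 hold for the unthinned counts only.

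Few cells of the other myeloid classes were left at dpi4. *Tap2* was higher in KO monocytes, 73.8 against 34.2 CPM over 72 and 46 cells, beside 5.20% of all genes. *H2-K1* and *H2-D1* were higher in KO neutrophils, beside 4.71% of genes, with *H2-D1* at 1412 against 809 CPM over 35 and 127 cells. *Nlrc5* was higher in KO type 2 dendritic cells, 21.5 against 13.6 CPM, beside 2.64% of genes, and this class had 278 and 266 cells. Thinned to 2000 UMIs it did not pass, with a mean of 0.0473 and 0.0418 UMIs per cell and 13 and 11 cells holding a UMI. The members' median log2 ratio was 0.39 in monocytes over 9 scored members, 0.48 in neutrophils over 5 and 0.21 in type 2 dendritic cells over 10.

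From dpi2 to dpi4 the members' median rose by 0.80 on the log2 scale in KO macrophages (0.74 and 0.84), where 6 of 10 passed the rule as higher, beside 16.9% of all genes higher and 15.3% lower. In control macrophages the median was 0.13 (0.04 and 0.20) and 2 of 10 were higher, beside 17.2% of genes higher and 18.2% lower. The 6 genes in KO macrophages were *H2-K1* at 1.22, *H2-D1* at 1.12, *B2m* at 0.87, *Tap1* and *Psmb9* at 0.86 and *Tapbp* at 0.75. The 2 genes in control macrophages were *H2-D1* at 0.76 and *H2-K1* at 0.67, while *Tap1* was at -0.17 and *Psmb8* at -0.20 there. At a 2-fold limit 2 members were higher in KO macrophages, beside 8.79% of genes, 0 in control macrophages, beside 9.70%, and 3 in KO monocytes, beside 5.68%. A share of members near that of all genes, as in control macrophages, says little about them in particular.

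In KO monocytes 8 of 10 members were higher at dpi4 than at dpi2, beside 10.4% of genes, whereas in control monocytes none was higher and *Tap2* was lower, beside 7.61% and 3.82%. In KO neutrophils 5 of 9 scored members were higher, beside 17.1%, whereas in control neutrophils 4 of 9 were lower (*H2-D1*, *B2m*, *Tap1* and *Psmb9*), beside 10.3% lower and 19.6% higher. In KO type 2 dendritic cells 4 were higher, beside 11.5%, and in control cells 5 were lower (all 3 immunoproteasome subunits, *Tap1* and *Nlrc5*), beside 12.3% lower and 11.6% higher. With cells thinned to 2000 UMIs, *H2-D1* and *Tap2* in KO monocytes and *Tap2* in KO type 2 dendritic cells fell short of 1.5-fold. These comparisons share libraries with those between genotypes and are not further evidence of them. Macrophages of the 2 days also differed as cells: the 10 macrophage markers summed to 11437 CPM in the control and 12802 CPM in the KO library at dpi2 and to 39816 and 32417 CPM at dpi4. The same markers were higher at dpi4 in the other classes too. In control and KO neutrophils they went from 617 to 3114 and from 496 to 2662 CPM. In monocytes they went from 3758 to 11524 and from 4073 to 8973 CPM. In type 2 dendritic cells they went from 577 to 6249 and from 897 to 3321 CPM. Neutrophil markers in neutrophils fell from 52603 to 34274 and from 73888 to 35800 CPM. The part of these markers in the differences between days was not tested.

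**Figure D3:**
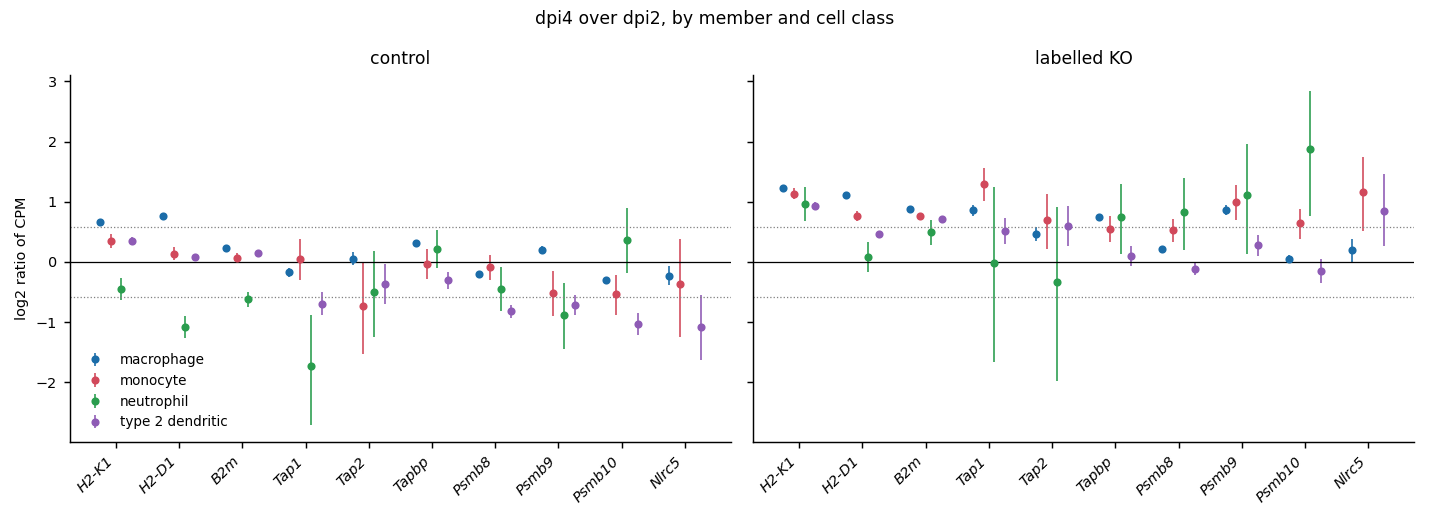
Log2 ratio of dpi4 over dpi2 for each member, drawn for the control and the KO libraries in macrophages, monocytes, neutrophils and type 2 dendritic cells, with exact 95% intervals for counting error. In macrophages and monocytes the KO points lie above 0 for all 10 members and above the control points.

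To see whether the proteasome as a whole moved, each immunosubunit was set against the constitutive subunit that it replaces within the same cells: *Psmb8* against *Psmb5*, *Psmb9* against *Psmb6* and *Psmb10* against *Psmb7*. The ratio of UMIs depends on how well each transcript is counted, so it was compared only between libraries and classes. In macrophages *Psmb8* over *Psmb5* at dpi2 was 0.924 (0.896 to 0.952) for control and 0.667 (0.643 to 0.693) for KO cells. In monocytes at dpi2 it was 2.16 and 1.24, and in neutrophils 2.74 and 1.41. *Psmb9* over *Psmb6* was 0.231 and 0.196 in macrophages, 0.840 and 0.442 in monocytes and 2.45 and 1.01 in neutrophils, and *Psmb10* over *Psmb7* was 0.870 and 0.750, 1.97 and 1.38, and 1.48 and 0.604. In these 3 classes at dpi2 the KO library thus had fewer immunosubunit UMIs for each UMI of the partner, with intervals that did not overlap. In type 2 dendritic cells the intervals lay apart for *Psmb9* over *Psmb6*, at 1.12 and 0.821, and for *Psmb10* over *Psmb7*, at 1.88 and 1.33, but overlapped for *Psmb8* over *Psmb5*, at 3.17 (2.89 to 3.48) and 2.75 (2.49 to 3.04). In macrophages at dpi4 the KO library was the lower for *Psmb8* over *Psmb5*, at 1.37 against 1.57, and for *Psmb10* over *Psmb7*, at 1.16 against 1.33, and the higher for *Psmb9* over *Psmb6*, at 0.432 (0.416 to 0.447) against 0.387 (0.374 to 0.399). All of these macrophage ratios were higher at dpi4 than at dpi2 in both genotypes, and *Psmb5* was lower: it was at 238 CPM at dpi2 and 122 CPM at dpi4 among control macrophages, and at 234 and 132 CPM among KO macrophages. Across classes the ratio of *Psmb8* to *Psmb5* was highest in mature dendritic cells, from 5.66 to 8.10 over the 4 libraries, and in type 1 dendritic cells it was 3.83 to 5.13.

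**Figure D4:**
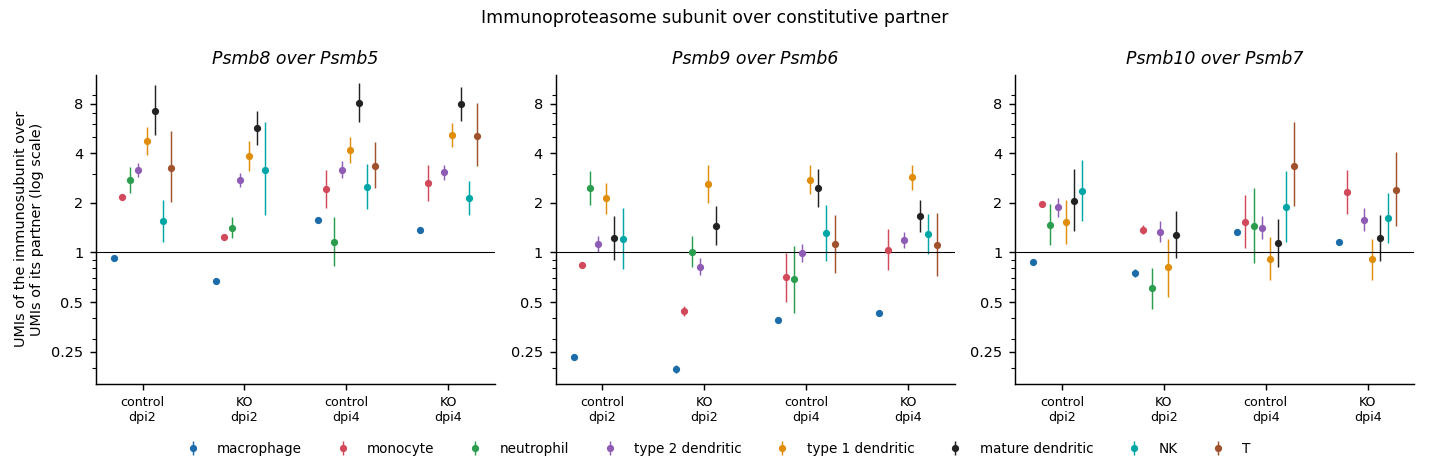
UMIs of *Psmb8*, *Psmb9* and *Psmb10* divided by the UMIs of *Psmb5*, *Psmb6* and *Psmb7* (log axis) in each library and leukocyte type with at least 50 UMIs in the pair, with exact 95% intervals. Macrophages sit near or below 1 at dpi2, and mature dendritic cells sit between 5.66 and 8.10 for *Psmb8* over *Psmb5*.

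Monocytes and macrophages were made up of several clusters, and different clusters held most of them in the libraries of dpi2. In the control library 22.9% of monocytes and macrophages were in a monocyte cluster led by *Ccl12* and *Cxcl10* and 26.6% in a macrophage cluster led by *Pdpn* and *Hmga2*, against 5.62% and 9.11% in the KO library. The KO library held 27.0% in a monocyte cluster led by *Vcan* and *Il6* and 21.9% in a macrophage cluster with *Jag1* and *Ppbp* among its leading genes, against 1.85% and 1.43% in the control. Clusters drawn mostly from 1 library cannot be told apart from that library. Within the 9 clusters that had at least 30 cells in both libraries of dpi2, the members' median log2 ratio ran from -0.50 in the macrophage cluster led by *Lyve1* to -0.05 in the *Cxcl10* cluster, beside medians over all genes of -0.07 to 0.03. In the *Cxcl10* cluster the median over all genes was also -0.05, and there and in the cycling cluster led by *Birc5* and *Top2a*, at -0.24, the median limits included 0. Within the 6 such clusters of dpi4 it ran from 0.10 to 0.43, beside -0.07 to 0.08 over all genes, and in 3 of them the limits included 0. *Tap1* in the *Lyve1* cluster was at 120 CPM in the control and 56.9 CPM in the KO library, and in the *Cxcl10* cluster at 179 and 184 CPM. *Psmb9* in the *Cxcl10* cluster had a log2 ratio of -0.60 (-0.80 to -0.40) and *Psmb10* one of -0.42 (-0.58 to -0.25), and over the 9 clusters *Psmb9* ran from -0.87 to -0.10. Monocytes and macrophages as a whole had a median log2 ratio of -0.55 at dpi2, which was -0.32 when both libraries were given the same shares of the clusters, and at dpi4 it was 0.22 and 0.26.

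The clusters differed in the interferon response. The summed level of 17 interferon-stimulated genes, fixed as a list without the members, ran from 355 to 7819 CPM over the 31 combinations of cluster and library. Over these points, which share libraries and depth, Pearson's correlation of the log2 levels with that sum was 0.92 for *Tap1*, 0.89 for *Nlrc5*, 0.87 for *Psmb10* and *Tap2*, and 0.80 for *Psmb8* and *Psmb9*. It was lower for *B2m* at 0.52, *H2-K1* at 0.43 and *H2-D1* at 0.36, and for these the days lay apart: within the 18 points of dpi2 *H2-K1* and *H2-D1* were at 0.69, and within the 13 points of dpi4 at 0.66 and 0.43. At dpi2 no cluster exceeded 1124 CPM of *H2-K1*. At dpi4 the clusters led by *Vcam1* and *Slc40a1* and by *Pltp* and *Apoe* had 1364 to 1941 CPM of *H2-K1* at an interferon-stimulated sum of 654 to 1284 CPM, but those led by *Pdpn* and by *Mmp12* had 769 to 1100 CPM at a sum of 355 to 995 CPM.

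**Figure D5:**
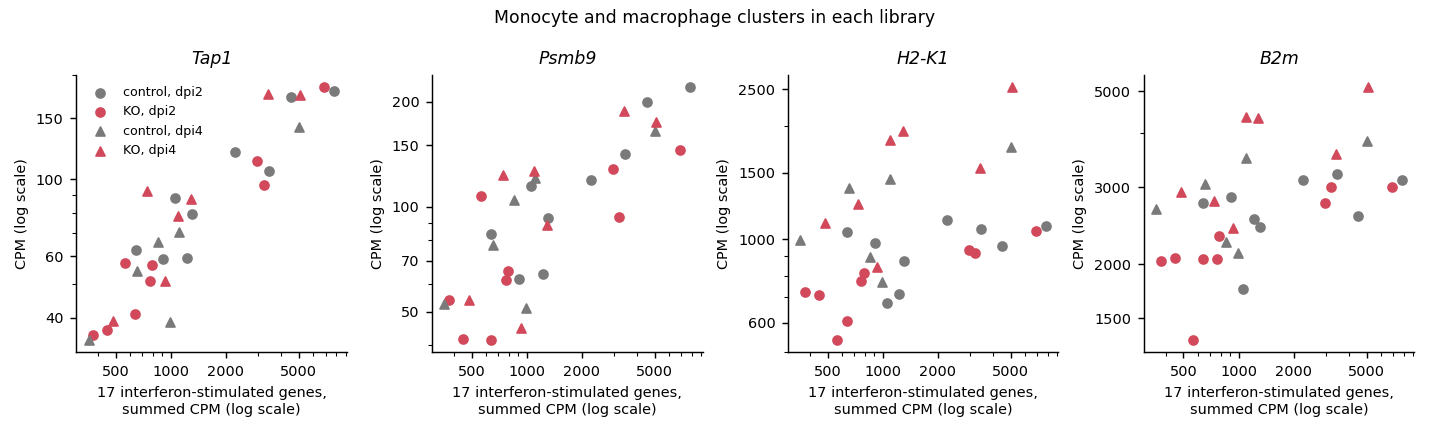
Level of *Tap1*, *Psmb9*, *H2-K1* and *B2m* (CPM, log axis) against the summed level of 17 interferon-stimulated genes (CPM, log axis), with a point for each monocyte or macrophage cluster of at least 30 cells in a library. *Tap1* follows the sum over all 31 points (Pearson's correlation 0.92), while for *H2-K1* and *B2m* several points of dpi4 lie above those of dpi2 at a like sum and others among them.

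The rest of the pathway was taken from lists of named genes. Of 10 scored class I molecules outside the members, 4 were lower in KO macrophages at dpi2: *H2-T23*, which encodes Qa-1, at 152 and 90.2 CPM, *H2-T22* at 60.6 and 37.6, *H2-Q7* at 19.5 and 9.74, and *H2-T24* at 13.2 and 5.61. These genes are near copies of each other, so the split of reads between them is uncertain. *Cd1d1*, a class I-like molecule that presents lipids, was instead higher, at 12.0 CPM in the KO and 2.55 CPM in the control library, and again at dpi4, at 15.2 and 3.79 CPM. The list's median log2 ratio was -0.55 at dpi2 and 0.24 at dpi4, when *Mr1* and *H2-Q6* were higher along with *Cd1d1* and none was lower. In monocytes at dpi2 6 of these 10 genes were lower, beside 6.62% of all genes, and 1 was higher. In neutrophils 5 of 7 were lower, beside 21.3% of all genes, and 1 was higher, without scaling by the median gene.

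None of 10 loading and trimming genes passed the rule in KO macrophages at either day, with medians of 0.11 and 0.09, and *Calr*, a chaperone of class I folding, was at 1373 CPM in the control and 1436 CPM in the KO library at dpi2. None of the 12 non-catalytic subunits of the 20S proteasome core and none of the 3 constitutive catalytic subunits passed in macrophages at dpi2 or dpi4, with medians of -0.12 and -0.24 at dpi2. Of these, *Psmb6* had the lowest ratio at dpi2, at -0.40 (-0.44 to -0.36). *Psme1* and *Psme2*, which encode the interferon-inducible proteasome activator PA28, were at -0.40 and -0.42 in macrophages at dpi2, short of 1.5-fold, and *Psme3*, of a different regulator, was at 0.25. *Psme2* passed in monocytes, at -0.65, and both passed in neutrophils.

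From dpi2 to dpi4 the core subunits passed the rule as lower in macrophages more often than the members did. The non-catalytic core subunits were lower at dpi4 in 8 of 12 genes in control and in 6 of 12 in KO macrophages, with medians of -0.73 and -0.62, and the constitutive catalytic subunits in 2 of 3 and 1 of 3. None of the members was lower by this rule in macrophages of either genotype, beside 18.2% of all genes in control and 15.3% in KO macrophages. So low an expected number says little about the members in particular. Some members, *Tap1* and *Psmb8* among them, were lower by less than 1.5-fold in control macrophages.

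Among the regulators of class I transcription, *Stat2*, a factor that carries type I interferon signals to the nucleus, was lower in KO macrophages at dpi2, at 22.9 against 49.2 CPM, a log2 ratio of -1.11 (-1.23 to -0.98). It was also lower in monocytes, at -1.40, in neutrophils, at -1.99, and in type 2 dendritic cells, at -1.79. *Irf8*, a factor of the macrophage lineage, was at -0.27 in macrophages and did not pass. The median of the 16 listed regulators in macrophages was -0.12, and 7 of them were above 0. At dpi4 *Ciita*, the class II counterpart of *Nlrc5*, was lower in KO macrophages, with a log2 ratio of -0.68 (-0.84 to -0.53), and was named after its value was seen. The interferon receptors and their kinases did not pass at either day: *Ifngr1* was at 0.46 and *Ifnar2* at 0.37 at dpi2, and the median of the 7 scored genes was 0.13.

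The interferon-stimulated list was lower in KO cells at dpi2 in every gene deep enough to score, 16 in macrophages, 17 in monocytes, 13 in neutrophils and 16 in type 2 dendritic cells, with median log2 ratios of -1.34, -1.44, -2.06 and -1.62. The members thus shared its direction at a smaller size in each class. At dpi4 in macrophages 3 of the 17 genes were higher, *Cxcl9*, *Ifi44* and *Iigp1*, none was lower, and the median was -0.14, below 0 where that of the members was above it. From dpi2 to dpi4 the list's median was 1.03 in KO and 0.01 in control macrophages.

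*Ifng*, the gene of the interferon that most strongly induces class I presentation, was counted mainly in NK and T cells. NK cells held 47 *Ifng* UMIs in 19 of 74 control cells and 8 in 5 of 22 KO cells at dpi2. At dpi4 they held 397 UMIs in 11 of 39 control cells and 25 in 14 of 80 KO cells, but 380 of the 397 came from a single cell. *Ifng* therefore gave no stable level for control NK cells at dpi4. T cells held no *Ifng* UMI at dpi2, in 30 control and 14 KO cells, and 17 and 24 UMIs at dpi4. Macrophages, which serve as a class that should lack it, held 0 to 5 *Ifng* UMIs per library over 1047 to 2965 cells.

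The genes whose levels most resembled those of the 10 members were sought over 19 combinations of class and library with at least 50 cells. The mean z-score of the members was compared with the log2 level of each of 5696 genes. Among the genes with the highest Pearson correlations outside the members were *Epsti1* (0.95), *Etnk1* (0.93), *H2-T22* (0.88), *Apobec3* (0.87), *H2-T23* (0.85), *Cd47* (0.84), *Psme1* (0.83), *Arhgap30* (0.83) and *Rnf114* (0.81). The members themselves ranged from 0.46 for *Tapbp* to 0.91 for *Tap1*. These points share libraries and classes, and the values are a description.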

How the data were processed

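The deposited files were filtered matrices of raw UMI counts per gene and barcode, made by the authors with Cell Ranger 6.1.2 against mm10, and no barcode in them had under 500 UMIs. The labels name version 2 of the single-cell 3′ kit and the study's methods a later version. The rest was computed here with Python 3.11.15 and scanpy 1.11.5. Cells needed at least 500 genes and under 10% mitochondrial UMIs, and the cells with the highest Scrublet scores were removed as doublets, a share that grew with the number of cells and came to 100 to 289 cells per library. These limits stand in for the miQC and scDblFinder steps of the study. The libraries were clustered together with no integration step, where the study used Harmony (2000 variable genes without the 91 listed genes, 30 components, 15 neighbours, Leiden resolution 1), and clusters were named from 109 markers. Shallow clusters led by none of their own markers stayed unnamed, and muscle, endothelial and fibroblast cells were left out. Levels are summed UMIs per 1e6 UMIs of the class (CPM), with exact Poisson intervals, and ratios have exact binomial intervals. The ratio intervals and the rule of size were tested on simulated Poisson counts, with no variation between cells or animals. The other steps were not tested in this way.

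The members and lists were chosen with earlier results of these data known. All 10 members are named, and of each list at most 4 genes, those with the most UMIs and the widest log2 ratio in macrophages at dpi2. Other genes were named after their values were seen, and some results are not reported here. Alternatives covered the scaling, thinning, mitochondrial, gene and doublet limits, the clustering and the rule of size. No file held columns of other samples.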

Additional observations from a re-analysis of the deposited data

Results flagged for a closer look

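The members' median KO to control ratio lay on opposite sides of 1 at the 2 days, though the ratio of each single member did not. This was not tested, since each group is 1 library. The median log2 ratio of the members was higher at dpi4 than at dpi2 by 0.53 in macrophages (from -0.31 to 0.22), by 1.003 in monocytes (from -0.61 to 0.39), by 1.34 in neutrophils (from -0.87 to 0.48) and by 0.70 in type 2 dendritic cells (from -0.49 to 0.21). In neutrophils the value at dpi4 rests on 5 members and 35 KO cells, and the same 5 members had a median of -0.68 at dpi2, so that the difference is smaller like for like.

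Single members were listed when they passed the rule of size on at least 1 day and both intervals lay on opposite sides of 1. In macrophages this was *Tap1*, whose log2 ratio was higher at dpi4 by 1.03 (from -0.76 to 0.27). *Tap1* reached 1.5-fold on neither day in macrophages thinned to 2000 UMIs. Its mean per cell was 0.148 UMIs in control and 0.0984 in KO cells at dpi2, and 0.145 and 0.191 at dpi4. In monocytes it was *Tap2*, by 1.42 (from -0.31 to 1.11), and *Psmb10*, by 1.18 (from -0.67 to 0.50). In neutrophils *H2-K1* was higher by 1.42 (from -0.76 to 0.66), *H2-D1* by 1.17 (from -0.36 to 0.80) and *B2m* by 1.11 (from -0.64 to 0.48), but scaled by the median gene the dpi2 ratio of *H2-D1* was -0.06. On that scale the dpi2 ratio of *B2m* fell short of 1.5-fold, as its unscaled dpi4 ratio did. In type 2 dendritic cells *Tap1* was higher by 1.20 (from -0.86 to 0.35), *Psmb9* by 0.98 (from -0.60 to 0.38) and *Nlrc5* by 1.93 (from -1.27 to 0.66). With cells thinned to 2000 UMIs, *Psmb9* at dpi2 and *Nlrc5* at dpi4 in this class did not reach 1.5-fold.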

How the results depend on the processing

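Each group is 1 library, so no setting bears on differences between animals, and neutrophils, T, B and NK cells are limited by few cells or shallow counts. Of the medians and counts recomputed, 49 values stayed and 16 moved, with no median changing sign. A median stayed when it lay within its limits, and a count when it changed by at most 1.5-fold. In monocytes at dpi2 the members' median log2 ratio of -0.61 became -0.54 with cells thinned to 2000 UMIs, -0.73 with a mitochondrial limit of 5%, -0.73 with no doublets removed, -0.69 at Leiden resolution 2 and -0.71 with the listed genes among the variable genes. In neutrophils at dpi2 it was -0.56 when scaled by the median gene, which took *H2-K1*, *B2m* and *Tapbp* below 1.5-fold and put the median above that of monocytes, -0.60. From dpi2 to dpi4 in KO macrophages it was 0.85 with that scaling and 0.72 thinned. Giving both libraries the same cluster shares moved the joint value of monocytes and macrophages at dpi2 from -0.55 to -0.32. At a 2-fold limit the lower members at dpi2 numbered 0 in macrophages, 2 in monocytes, 4 in neutrophils and 1 in type 2 dendritic cells, and the higher members at dpi4 over dpi2 numbered 2 in KO macrophages, 3 in KO monocytes and 0 in control macrophages. With cells thinned, the dpi2 ratios of *Tap1* and *Psmb9* in macrophages fell short of 1.5-fold, at -0.58 and -0.54, as did *Tapbp* in neutrophils, *Psmb9* and *Psmb10* in type 2 dendritic cells and *Psmb8* in B cells at dpi2 and *Nlrc5* in type 2 dendritic cells at dpi4, and the dpi4 ratios of *Psmb8* and *Psmb10* in macrophages turned from below 0 to 0.054 and 0.00075. Of 489 values for single members 368 stayed within their limits, 119 moved and 2 reversed, and 484 kept their sign. Counting the unnamed cluster nearest neutrophils as neutrophils, chosen after seeing the data, gave -0.79 in place of -0.87. The cause of these shifts was not tested.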
